A study of Homo sapiens with 9 samples.

Results

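The ZNF608 locus is a stretch of 1.1 Mb in band 5q23.2 of the human genome, chr5:123900000-125000000 in build hg18. It holds ZNF608, placed at about 124.0 Mb by the rule that defines the locus, and the gene-poor sequence next to it. Its members are all chromatin immunoprecipitation sequencing (ChIP-seq) peaks whose centre lies in the stretch, 201 of the 125904 peaks in 5 lists. The stretch was chosen by its number of peaks in 2 of the lists, H3122 NKX2-1 replicate 2 and H3122 FOXA1, which are denser here than almost anywhere else, so the density of those lists is given as a description.

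The study mapped the transcription factor NKX2-1 in NCI-H3122, NCI-H2087 and NCI-H1819, 3 established cell lines of lung adenocarcinoma. All 3 lines carry an amplification of the NKX2-1 gene, so none of them shows the factor at its normal copy number. NKX2-1 was precipitated with a Bethyl Laboratories antibody, giving 2 lists from H3122 and 1 list each from H1819 and H2087, and FOXA1 was precipitated with an Abcam antibody in H3122 only. The labels name neither a treatment nor a modified gene, and they do not say whether the H3122 pair came from separate cultures.

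NKX2-1 (TTF-1) is a homeodomain factor that directs lung and thyroid development and switches on surfactant genes in the alveolar epithelium. FOXA1 is a winged-helix pioneer factor, able to bind its site in closed chromatin, and works beside NKX2-1 in lung epithelium. ZNF608 encodes a zinc finger protein whose function is little characterised. In RefSeq (assembly GRCh38.p14) the nearest protein-coding genes are CSNK1G3 on one side and GRAMD2B on the other. The 14 annotated genes between ZNF608 and GRAMD2B are all non-coding or pseudogenes, 9 of them long non-coding RNAs.

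The promoter of ZNF608 is shown because it is the only sequence of the locus in the reference used here. RefSeq gives the 250 bases before the start of the gene as chr5:124748825-124749074 on the minus strand of GRCh38.p14. The capitals mark CAAG, the core of NKX2-1 sites, on either strand.
ZNF608: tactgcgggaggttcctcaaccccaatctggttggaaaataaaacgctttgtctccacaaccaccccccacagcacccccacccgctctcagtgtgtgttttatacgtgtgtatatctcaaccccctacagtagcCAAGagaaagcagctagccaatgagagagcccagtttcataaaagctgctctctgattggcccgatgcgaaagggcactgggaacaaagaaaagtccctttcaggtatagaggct
CAAG occurs 1 time here, and 80.9% of the 35116 RefSeq promoters of this length hold it. The forkhead consensus TGTTTAC, searched on both strands, occurs 0 times here and in 2.98% of the promoters. Because the peaks are given in hg18 and the promoter in another build, no peak could be placed relative to the start of ZNF608 or to its exons and introns.

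NKX2-1 peaks of H3122 replicate 2 and FOXA1 peaks of H3122 were found in every 100 kb of the stretch and were fewest between 600 and 700 kb. Most NKX2-1 peaks of H1819 lay near one end of it, and H3122 replicate 1 and H2087 had few. The stretch held 82 NKX2-1 peaks in H3122 replicate 2 and 9 in replicate 1, 18 in H1819, 7 in H2087, and 85 FOXA1 peaks in H3122. The whole lists held 48071, 7469, 13486, 14441 and 42437 peaks in the same order. Relative to the mean density of its own list, the stretch was at 4.78 in replicate 2, 3.37 in replicate 1, 3.74 in H1819, 1.36 in H2087 and 5.61 for FOXA1. Exact Poisson 95% intervals, which cover counting error only, were 1.54 to 6.41 for replicate 1, 2.22 to 5.91 for H1819 and 0.546 to 2.80 for H2087. The interval of H2087 includes the mean of that list, and those of replicate 1 and H1819 lie above theirs. Most peaks of these 2 lists in the stretch lay on replicate 2 peaks, for whose number it was chosen, so this too is a description.

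To give these counts a background, the genome was divided into 2788 windows of the same length. In replicate 2 a single window, or 0.0359%, held at least 82 peaks, and for FOXA1 0 windows, or 0%, held at least 85. Both values follow from how the stretch was chosen. The other lists were not counted in the choice, but they are not independent of it. On a replicate 2 peak lay 9 of 9 replicate 1 peaks, 14 of 18 H1819 peaks and 7 of 7 H2087 peaks. Of the windows, 3.52% held at least 9 replicate 1 peaks, 1.79% at least 18 H1819 peaks and 29.99% at least 7 H2087 peaks. The H2087 count is therefore near the background of its list.

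**Figure D1:**
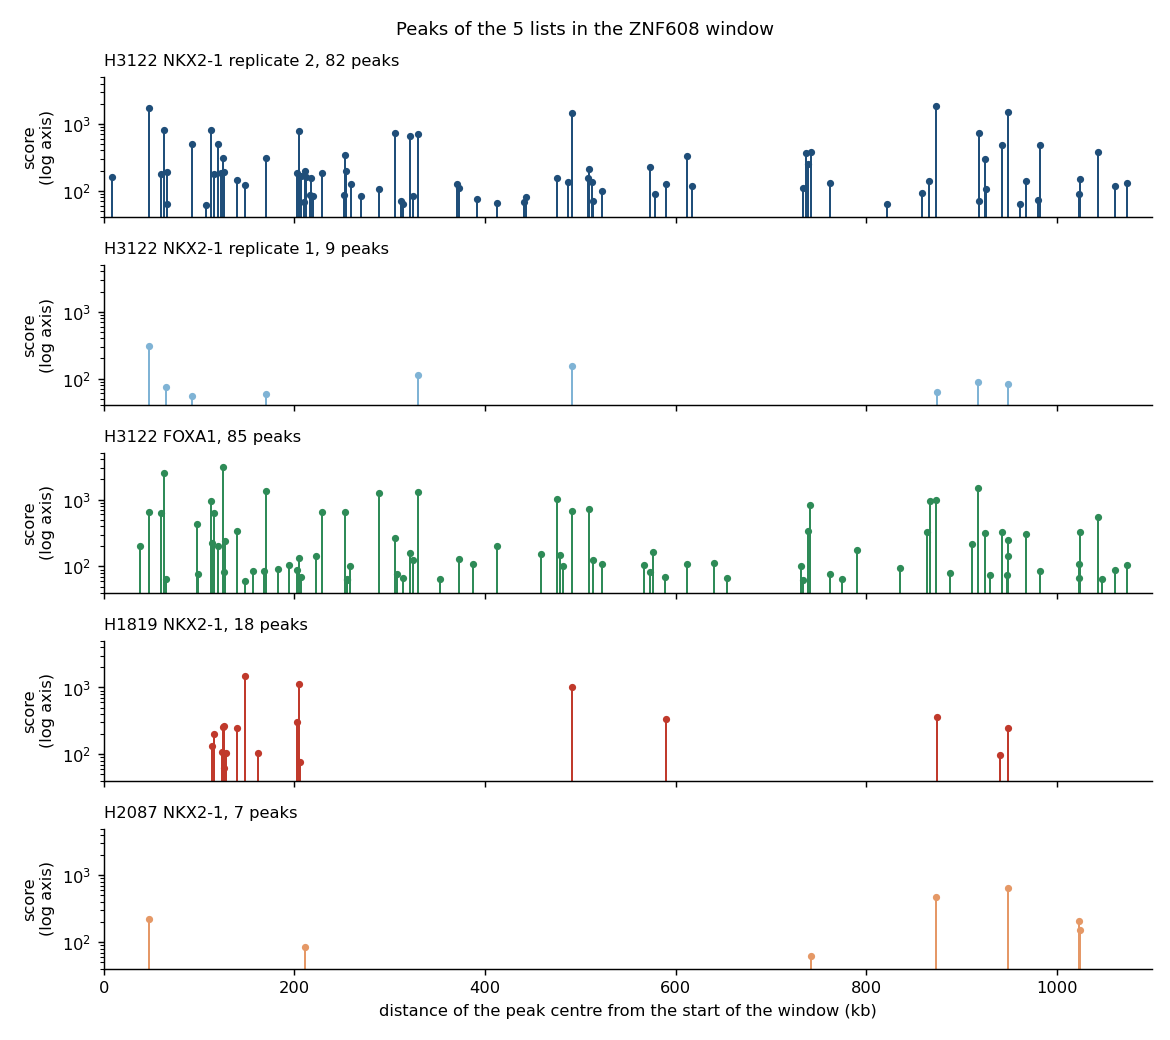
Each stem is a peak, placed by the distance of its centre from the start of the window in kb, with its score on a log axis; 1 panel per list. Replicate 2 and FOXA1 peaks run along the whole window, 13 of the 18 H1819 peaks lie between 100 and 300 kb, and the 7 H2087 peaks are scattered.

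Density was lower on both sides of the stretch. In the window of the same length next to it on either side, every list but H2087 stayed above its mean. In the next window of the same length on the upper side, replicate 2 stood at 2.56 times its list mean with 44 peaks, and FOXA1 at 3.04 times with 46. On the lower side they stood at 1.63 and 2.18 times. Replicate 1 stood at 1.87 times on the upper side and 1.12 times on the lower, and H1819 at 1.66 and 1.04 times. H2087 stood at 0.388 times with 2 peaks on the upper side and at 0 with 0 peaks on the lower. The nearest H2087 peak below the stretch was 1762 kb from its border, whereas the nearest replicate 2 peak was 20.8 kb away, the nearest H1819 peak 32.2 kb and the nearest FOXA1 peak 20.9 kb. The first peak inside this border scored 162 in replicate 2, 310.4 in replicate 1, 134 in H1819, 219.7 in H2087 and 200.2 for FOXA1, and the first peak outside it scored 250.3, 89.2, 557, 66.1 and 752 in the same order. At the upper border the last peak inside scored 132, 83.9, 246, 152 and 104, and the first peak outside 93.2, 67.5, 336, 83.9 and 221, again in that order. Across the rest of band 5q23.2, outside the stretch, the densities were 1.65 times the list mean in replicate 2, 1.14 in replicate 1, 1.07 in H1819, 0.318 in H2087 and 2.02 for FOXA1.

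**Figure D2:**
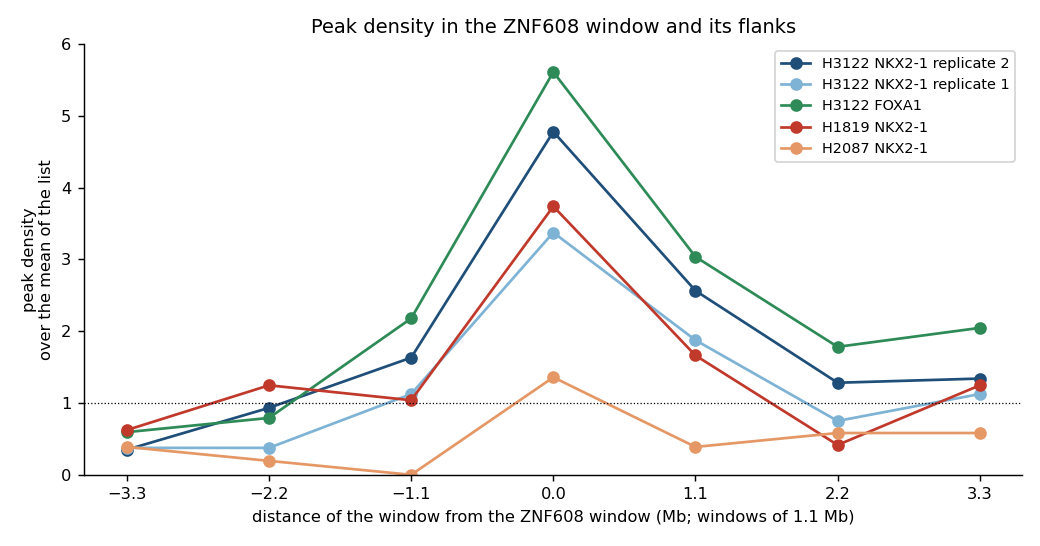
Peak density relative to the mean of each list (vertical axis) in 7 adjoining windows of 1.1 Mb, by distance from the ZNF608 window in Mb; the dotted line is the list mean. All 5 lists are highest in the ZNF608 window, from 5.61 for FOXA1 down to 1.36 for H2087.

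The strength of a peak is given by the authors' score. Its scale was taken to be minus 10 times the log10 of the peak caller's p-value, and it was compared within a list only. Replicate 2 and FOXA1 peaks had scores near those of their whole lists. The median score in the stretch was 152 in replicate 2, against 137 over that whole list, and for FOXA1 it was 135 against 139. Only 11 of the 82 replicate 2 peaks and 14 of the 85 FOXA1 peaks were in the top decile of their lists, while 7 and 9 were in the bottom decile. The 18 H1819 peaks scored 61.9 to 1478, with a median of 248 against 124 over the list. The 7 H2087 peaks had a median of 207 against 149.7, and the 9 replicate 1 peaks a median of 83.9 against 73.3. Median widths were 704 bp in replicate 2, 327 bp in replicate 1, 580.5 bp in H1819, 687 bp in H2087 and 599 bp for FOXA1, against 656, 314, 479, 592 and 569 bp over the lists.

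Within the stretch, neighbouring replicate 2 peaks lay a median of 5.996 kb apart from centre to centre, with a range of 0.447 to 117 kb. Over the whole list the median was 22.6 kb. FOXA1 peaks lay a median of 8.40 kb apart, from 0.476 to 78.4 kb, against 27.2 kb over the list. For H1819 the median was 8.30 kb against 70.2 kb, for replicate 1 it was 60.8 kb against 175 kb, and for H2087 it was 104 kb against 41.8 kb. By this median, over only 6 intervals, H2087 was the list with wider spacing here than over its whole list. Its density here was nevertheless 1.36 times the list mean. For replicate 2 and FOXA1 this spacing restates the peak numbers by which the stretch was chosen, and so do the shares and chains that follow. Neighbours up to 10 kb apart made up 48 of the 81 replicate 2 intervals, against 33.2% over the list, and 46 of the 84 FOXA1 intervals, against 29.7%. In H1819 they made up 10 of 17 intervals, against 21.5%, in H2087 1 of 6, against 28.0%, and in replicate 1 0 of 8, against 9.47%. Spacing was wider in shorter lists: with replicate 2 peaks of at least 100 the median was 11.6 kb, and with the 7469 best peaks of that list 27.3 kb.

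Joining centres up to 10 kb apart gave 34 chains in replicate 2, of which 15 were single peaks and 19 held 67 peaks between them. The longest chain had 10 peaks over 27.0 kb, chr5:124102075-124129081, and 0.128% of the 32123 chains of the list had as many. FOXA1 overlapped 4 of its 10 peaks, and it contained 3 H1819 peaks and 1 H2087 peak. Next came a chain of 7 peaks over 19.4 kb, chr5:124007704-124027118, where FOXA1 overlapped 5 of the 7 and 6 H1819 peaks but 0 H2087 peaks fell. The third replicate 2 chain, with 6 peaks over 24.8 kb at chr5:124205520-124230351, had FOXA1 on 5 of the 6 and no peak of H1819 or H2087. At scores of at least 100 the longest replicate 2 chain had 6 peaks, and among the 7469 best peaks 2. The longest FOXA1 chain, 7 peaks over 14.97 kb, and the longest H1819 chain, 7 peaks over 14.7 kb, both overlapped the replicate 2 chain of 7 peaks. As many peaks were found in 0.375% of FOXA1 chains and 0.132% of H1819 chains.

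Peaks were scarcest in the middle of the stretch. The widest interval between replicate 2 neighbours, 117 kb, ran from 124516891 to 124633435, and no NKX2-1 list had a peak in it, while FOXA1 had 3. The next intervals, of 59.2 kb from 124662765 and 50.6 kb from 124422556, also held no H1819 or H2087 peak, with 2 and 1 FOXA1 peaks. The widest interval between FOXA1 neighbours, 78.4 kb, lay inside the widest replicate 2 interval.

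Counted per 100 kb, replicate 2 had 7, 10, 16, 9, 6, 8, 2, 5, 4, 10 and 5 peaks from the lower to the upper end of the stretch, and FOXA1 had 7, 14, 10, 9, 6, 7, 3, 7, 5, 10 and 7. Both factors were lowest between 600 and 700 kb, and the 2 lists were highest in neighbouring bins, FOXA1 between 100 and 200 kb and replicate 2 between 200 and 300 kb. H1819 differed from both: 10 of its 18 peaks lay between 100 and 200 kb and 3 between 200 and 300 kb, the part that starts at 124000000, where the rule places ZNF608. The same 200 kb held 26 of 82 replicate 2 peaks and 24 of 85 FOXA1 peaks, but 1 of 7 H2087 peaks. Only 4 of 30792 bins of 100 kb in the genome held as many as 10 H1819 peaks, 0.0130%. This part of the stretch was picked after its counts had been seen, and no test was run on it. H2087 had 5 of its 7 peaks beyond 700 kb, where replicate 2 had 24 and H1819 3.

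**Figure D3:**
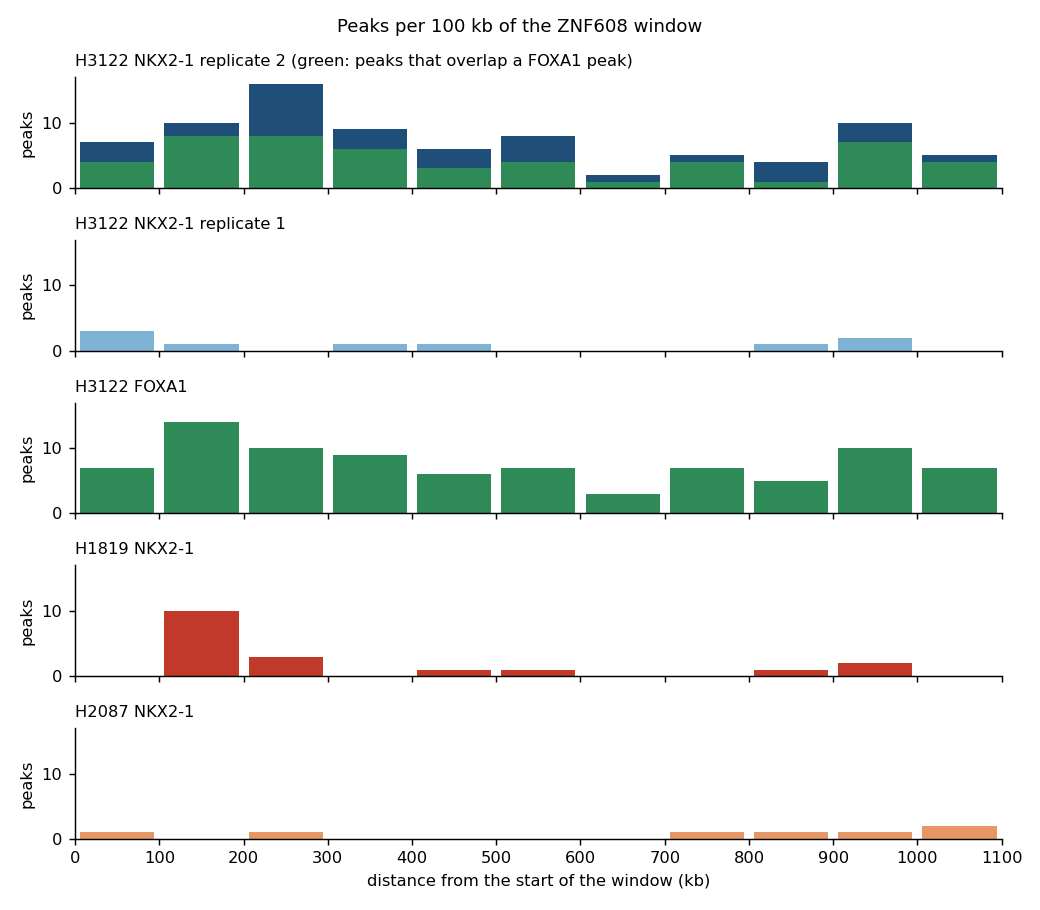
Number of peaks (vertical axis) per 100 kb of the window, by distance from its start in kb, 1 panel per list; green in the first panel marks replicate 2 peaks that overlap a FOXA1 peak. H1819 has 10 peaks in the bin from 100 to 200 kb and H2087 none there.

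Counting any overlap, FOXA1 lay on most of the H3122 NKX2-1 peaks of the stretch. Of the 82 replicate 2 peaks, 50 overlapped a FOXA1 peak by at least 1 bp and 32 did not, a share of 61.0% (exact Clopper-Pearson 95% interval 49.6 to 71.6, counting error only), against 47.8% over the whole list. Since peaks with FOXA1 had higher scores over the whole list, the share that the whole list gives at the same score deciles was computed too. It was 49.8%, or 40.8 peaks, which the interval of the replicate 2 share includes. Of the 9 replicate 1 peaks 8 overlapped FOXA1 (51.8 to 99.7%), against 50.3% over that list and 54.9% at matched score deciles. The interval includes the matched value. The NKX2-1 peaks of the other lines can only be set against FOXA1 of H3122. Of the H1819 peaks 12 of 18 overlapped it (66.7%, 41.0 to 86.7), against 28.7% over the list, and of the H2087 peaks 6 of 7 (85.7%, 42.1 to 99.6), against 31.6%. At matched score deciles the H1819 and H2087 backgrounds were 32.8% in both cases. The stretch is dense in FOXA1 peaks, which covered 4.91% of its bases, against 0.830% of the genome, and the part of that density in these shares was not tested. Peaks of 1 list are not replicates, so no test of these shares was run.

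With FOXA1, the replicate 2 peaks of the stretch had a median score of 191 and a median width of 720 bp. Without FOXA1 the medians were 111 and 670 bp. The same medians over the whole list were 197 and 699 bp with FOXA1 and 108 and 617 bp without. All 10 of the highest-scoring replicate 2 peaks had FOXA1, against 87.0% of the peaks of the whole list with scores as high. Of the highest-scoring 21 peaks 19 had it, against 75.9% of the list over the same scores, and of the lowest-scoring 21 peaks 7 had it, against 29.8%. The highest score without FOXA1 was 496.

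Among the 53 overlapping pairs, the centres of the NKX2-1 and FOXA1 peaks were a median of 124 bp apart and 22 pairs were within 100 bp, against a median of 77.0 bp over all 23492 pairs of the lists. Spearman's rho between the 2 scores was 0.31 over these pairs, and 0.31 over all pairs of the lists. The pairs share their libraries, and wide peaks overlap more readily, so it is given as a description. The 32 peaks without FOXA1 were a median of 2.60 kb from the nearest FOXA1 peak, 9 of them within 1 kb and all within 28.6 kb. The stretch was chosen for its many FOXA1 peaks, and the same distance over the whole list was not computed, so nothing is read from it.

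**Figure D4:**
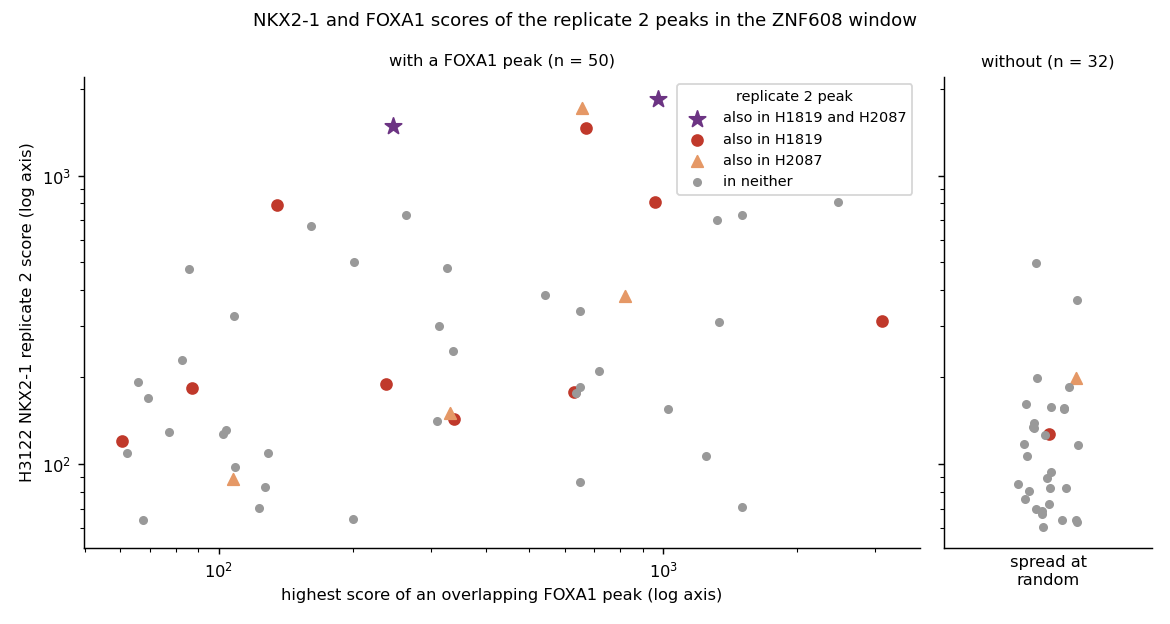
Score of each of the 82 replicate 2 peaks (vertical, log axis) against the highest score of a FOXA1 peak that overlaps it (horizontal, log axis), with peaks without FOXA1 in the narrow panel, spread sideways at random; symbols show which other lines have a peak there. The 10 highest NKX2-1 peaks are all in the left panel, and both stars, the peaks also in H1819 and H2087, are among the 3 highest.

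The 4 strongest replicate 2 peaks all had FOXA1 and all recurred in replicate 1, and each recurred in at least 1 other line. Strong peaks recurred more often over the whole list too. There, 12.5% of replicate 2 peaks recurred in replicate 1, with a median score of 454 against 124 for the rest. Of list peaks scoring at least 312, 49.0% were in H1819 or H2087. Recurrence over list peaks as strong as these 4 was not computed, so theirs is a description. The first, chr5:124772520-124774175, scored 1848 in replicate 2, 62.3 in replicate 1, 366 in H1819 and 471 in H2087, with FOXA1 at 974. The second, chr5:123947135-123948169, scored 1709 in replicate 2, 310.4 in replicate 1 and 219.7 in H2087, with FOXA1 at 658 and no H1819 peak. It was the highest replicate 1 peak of the stretch, whereas the first was among the 3 lowest there.

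The third, chr5:124847133-124849421, had scores of 1483 in replicate 2, 83.9 in replicate 1, 246 in H1819 and 648 in H2087. It is the widest peak of the stretch, at 2289 bp, and 3 separate FOXA1 peaks, with scores of 74.4, 144 and 246, lay on it. The fourth, chr5:124390372-124391440, scored 1458 and 154 in H3122 and 1001 in H1819, with FOXA1 at 669 and no H2087 peak. The first and the third were the only 2 regions of the stretch with a peak in all 4 NKX2-1 lists.

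The other 6 of the 10 strongest scored 699 to 812 in replicate 2, and 2 of them recurred in another line, both in H1819. The background at scores this high was likewise not computed. One was chr5:124012280-124014001, with 808 in replicate 2, 134 in H1819 and FOXA1 at up to 958. At the other, chr5:124104335-124106164, the scores were 793 in replicate 2, 1136 in H1819 and 135 for FOXA1. Among the 4 kept in neither line were chr5:123962391-123963618, where FOXA1 reached 2473, and chr5:124817247-124818098, where it reached 1501.

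Since scores were compared within a list only, peaks at the same place are set side by side by percentile in their own list. The strongest FOXA1 peak of the stretch, chr5:124024774-124025847, had a score of 3100, at percentile 99.8. It lay on a replicate 2 peak that scored 312 (percentile 79.1). It also lay on 2 H1819 peaks that scored 259 and 261 (percentiles 78.1 and 78.3), so all these peaks ranked above the middle of their lists. Ranks stood further apart at the strongest H1819 peak of the stretch, chr5:124047412-124048233, which scored 1478. Replicate 2 there scored 120.3 (percentile 43.6) and FOXA1 60.6 (percentile 0.7), the lowest FOXA1 score of the stretch.

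The strongest replicate 2 peaks without FOXA1 were chr5:123992395-123993524, with a score of 496 and a replicate 1 peak of 55.7, and chr5:124636722-124637454, with 369. The next 3 scored between 185 and 199, and 1 of those, chr5:124110616-124111470, had an H2087 peak of 86.1. Of the 85 FOXA1 peaks, 51 overlapped a replicate 2 peak, 60% (48.8 to 70.5), against 54.5% over the list and 55.6% at matched score deciles. The short replicate 1 list lay on only 8 of the 85, 9.41%, against 8.72% over the list. The 34 FOXA1 peaks without H3122 NKX2-1 had a median score of 94.1, against 246 for the rest. The whole list differed in the same way, with medians of 99.7 without a replicate 2 peak and 207 with one. The strongest of the 34 was chr5:124766339-124767038, with 938, inside the replicate 2 chain that ends with the strongest NKX2-1 peak. The next scored 435, 333, 214 and 200.2. Counting H1819 and H2087 too, 53 FOXA1 peaks had an NKX2-1 peak of some list, 62.4% against 56.5%.

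Only a minority of the replicate 2 peaks were kept in H1819 or H2087, both in the stretch and over the whole list. Of the 82 replicate 2 peaks, 12 overlapped an H1819 peak (14.6%, 7.80 to 24.2), against 14.7% over the list, and 7 overlapped an H2087 peak (8.54%, 3.50 to 16.8), against 20.01%. At matched score deciles the whole list gave 15.6% for H1819 and 21.0% for H2087. The H1819 share is thus at its background. The H2087 share is below its background, and its interval does not reach it. Both shares are taken over the replicate 2 peaks, for whose number the stretch was chosen. All 7 H2087 peaks of the stretch lay on a replicate 2 peak. The part of that choice in the low H2087 share was not tested, and nothing is read from it. Replicate 1 recovered 9 of the 82 (10.98%, 5.14 to 19.8), against 12.5%, so in the same line most replicate 2 peaks were not called again in the shorter list.

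In the other direction, most peaks of the shorter lists fell on a replicate 2 peak. Replicate 2 peaks, for whose number the stretch was chosen, covered 5.77% of its bases, against 1.12% of the genome, and the part of that in these shares was not tested. This held for 9 of 9 replicate 1 peaks (66.4 to 100%, against 81.7% over the list), 14 of 18 H1819 peaks (77.8%, 52.4 to 93.6, against 53.4%) and 7 of 7 H2087 peaks (59.0 to 100%, against 67.7%). H1819 and H2087 shared 2 places, 2 of 18 and 2 of 7 of their peaks, against 22.8% and 21.0% over the lists.

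Replicate 2 peaks of high score were found again more often in the other lines, in the stretch and over the whole list alike. Split into 4 classes by score, replicate 2 had 8 of 21 peaks of the highest class in H1819 or H2087, against 49.0% of the list over the same scores. In the next lower classes it had 4 of 20 against 34.0% and 4 of 20 against 24.1%, and in the lowest class 1 of 21 against 14.8%. With FOXA1, 15 of 50 replicate 2 peaks were in H1819 or H2087, and without FOXA1 2 of 32. Over the whole list these shares were 28.5% and 29.3%, with 28.9% for all replicate 2 peaks. The peaks with FOXA1 had the higher scores both in the stretch and over the whole list, as given above, and the part of score in this was not tested. With each list limited to its 7469 best peaks, 5 of 15 replicate 2 peaks were in H1819, 3 of 15 in H2087 and 7 of 15 on FOXA1, against 24.6%, 28.5% and 38.1% over the best peaks of the list. The interval of the H2087 share was then 4.33 to 48.1%, which includes the background.

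**Figure D5:**
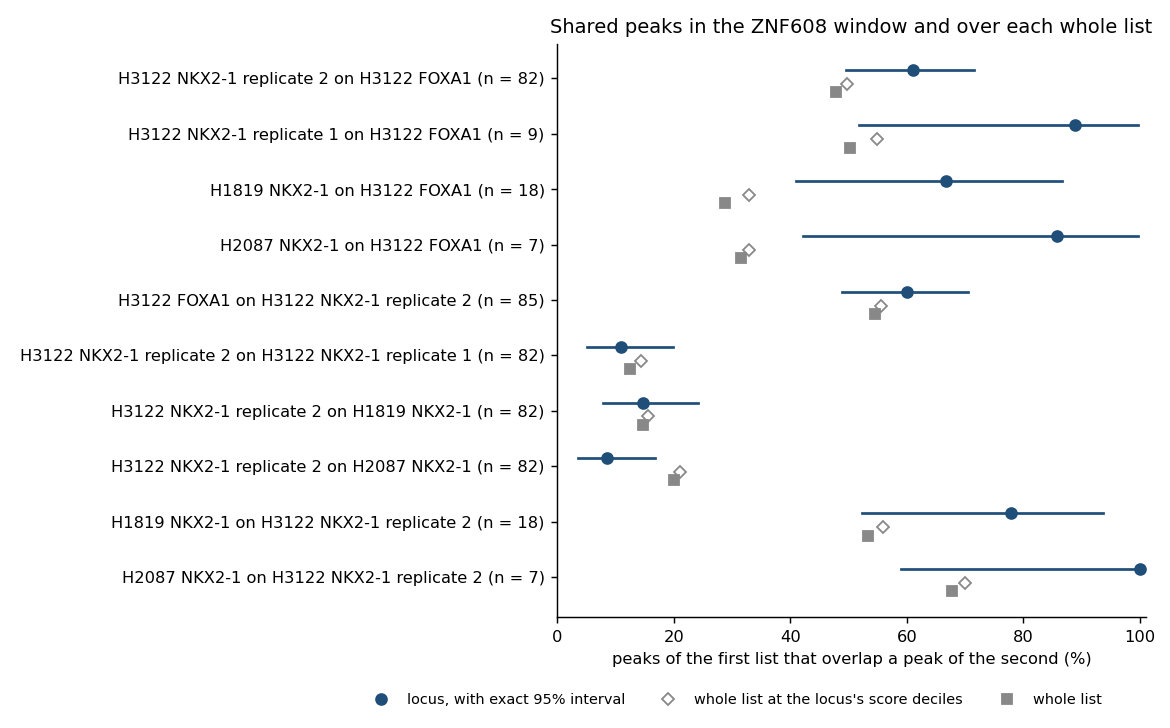
Share of the peaks of one list that overlap a peak of a second list, in percent: in the window (circles, with exact 95% intervals), over the whole list at the window's score deciles (diamonds) and over the whole list (squares); n is the number of peaks in the window. The interval of the replicate 2 share on H2087, 3.50 to 16.8%, lies below the 20.01% of the whole list, and the H1819 share on FOXA1 above its 28.7%. The window was chosen for its many replicate 2 and FOXA1 peaks, so nothing is read from these distances.

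Merging all NKX2-1 peaks that overlapped gave 86 regions in the stretch, of 59685 in the genome. Since the stretch was chosen for its many replicate 2 and FOXA1 peaks, the shares of regions with and without them are descriptions, and nothing is read from their distance to the genome. Replicate 2 alone held 60 of the regions, 69.8% against 52.3% in the genome, and 31 of those 60 had FOXA1, against 46.6%. Both H3122 replicates had a peak in 9 regions, 10.47% against 10.01%, and 8 of them had FOXA1, against 62.6%. Of these 9, 2 were also in both other lines, 1 in H1819 alone, 1 in H2087 alone and 5 in neither, which are 2.33%, 1.16%, 1.16% and 5.81% of the regions against 1.61%, 1.54%, 1.98% and 4.88% in the genome. A further 9 regions had peaks in replicate 2 and H1819 only, 10.47%, against 5.62% of genome regions with 1 H3122 replicate and H1819. Peaks in replicate 2 and H2087 only made 4 regions, 4.65%, against 9.16% for the matching class. FOXA1 was on 8 of the 9, against 49.9% of that class in the genome, and on 3 of the 4, against 41.2%.

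Shares of regions without H3122 NKX2-1 are likewise descriptions, since the stretch was chosen for its many replicate 2 peaks. There were 4 regions with no H3122 NKX2-1 peak, 4.65% against 17.7% in the genome, and all 4 were H1819 peaks. Their scores of 98.5 to 107 were below the list median of 124. FOXA1 lay on 0 of the 4, and over the genome on 6.08% of the regions of H1819 alone. One, chr5:124024288-124024721, ended just before a replicate 2 peak began, and another, chr5:124027847-124028407, lay at the end of the same chain. The remaining 2 were chr5:124061471-124061997 and chr5:124840371-124840838. H2087 had 0 regions of its own in the stretch, against 7.27% of regions in the genome, and replicate 1 had 0 against 2.15%. The 2 regions in all 4 lists have replicate 1 peaks of 62.3 and 83.9. At scores of at least 100 they therefore no longer count as found in both H3122 replicates, which leaves 0 regions in all 4 lists, but 2 still have a peak in each of the 3 lines.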

How the data were processed

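Peak lists of 5 precipitated libraries were used. The 4 input libraries were not analysed here, and which input served which list is not given in the sources used here. The submitters' processing notes name Bowtie, MACS 1.4.0 and build hg18. Each deposited list gives positions and a score per peak, called on 1 library per the labels. The scale of the deposited score was taken to be minus 10 times the log10 of the p-value, because the lowest scores lie at round values (50.0 in H3122 NKX2-1 replicate 1, 60.0 in the others). The scale itself, the calling thresholds and the read depth are stated nowhere in those sources.

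Peaks were assigned by their centre. Overlap meant at least 1 bp, and regions that overlapped were merged. Densities used hg18 chromosome lengths and bands from circlize 0.4.16 (R 4.3.3). Other steps used scipy 1.17.1, numpy 2.4.6, matplotlib 3.10.9 and pandas 2.3.3 in Python 3.11.15. Simulated lists with planted overlaps were used to test the code. Peaks on unplaced sequence (0 to 10 per list) were left out of densities, overlaps and shares. Matched backgrounds summed the whole-list share of each peak's score decile. No test was run. Regions were named by rank of score, presence in all lists, absence of FOXA1 or of H3122 NKX2-1, and rank of interval and chain; the H1819 part, the strongest FOXA1 and H1819 peaks and further members were picked after their values were seen. The members and lists were chosen with earlier results of these data known. Alternatives changed score limits, list lengths, overlap, membership, merging, chain distance and the H3122 replicates.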

Additional observations from a re-analysis of the deposited data

How the results depend on the processing

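Of 213 values under alternatives to 39 results, 172 stayed within the interval of the result or, for numbers and distances, within 1.5 times it, and 41 moved. Limiting every list to its 7469 best peaks moved most. It gave a FOXA1 density of 7.50 times the list mean, FOXA1 on 46.7% of replicate 2 peaks, replicate 2 on 35.0% of FOXA1 peaks, and 33.3% and 20% of replicate 2 peaks in H1819 and H2087. It also gave a median distance of 27.3 kb between replicate 2 centres. Scores of at least 100 gave a distance of 11.6 kb and 0 regions in all 4 NKX2-1 lists, because both replicate 1 peaks scored lower, while 2 regions kept a peak in each of the 3 lines. Leaving out replicate 1 or replicate 2 gave 2 such regions each time. With replicate 1 in place of replicate 2, NKX2-1 lay on 9.41% of FOXA1 peaks. These changes came with fewer peaks, and the cause was not tested. The other overlap rules, any overlap with the stretch and merging over 500 bp moved none of their 48 values out of these limits. The intervals are wide, however. With the centre required inside the other peak, 50.0% of replicate 2 peaks had FOXA1, 6.10% were in replicate 1 and 9.76% in H1819, while H2087 stayed at 8.54%. An overlap of at least 50% of the shorter peak gave FOXA1 on 54.9%. No paired analysis was possible because the groups with peak lists share fewer than 2 replicate numbers and the results come from no test. Depth is unknown, so a missing peak does not show that a site was unbound.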
